A study of Danio rerio with 20 samples.

Results

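The higher and the lower level of a mixture of persistent organic pollutants were compared in whole zebrafish larvae. The POP70 group had the mixture at 70 times, and the POP10 group at 10 times, the average blood levels of people in Scandinavia. Each group had 4 RNA-seq libraries, taken by the names of their columns, so the comparison used 8 of the 20 libraries of the series. The other 12 were solvent controls (Control) and larvae given perfluorooctanesulfonic acid (PFOS) alone at the amounts in each mixture (PFOS70 and PFOS10). All larvae were wild type of the AB strain, exposure ran from 6 to 96 hours post fertilization (hpf), and each library came from a pool of 10 larvae. A solvent level of 0.1% DMSO is stated for Control, and the labels do not give it for the exposed groups. Nor do they tie the pools to separate clutches, and p-values here measure only how pools differed.

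Persistent organic pollutants are halogenated chemicals that resist breakdown and build up in animals. Dioxin-like members bind the aryl hydrocarbon receptor, which switches on cyp1a, and perfluorinated acids resemble fatty acids and can act on their receptors. In the larval retina, cone and rod opsins catch light and activate transducin, which lowers cyclic GMP through a phosphodiesterase and closes the channels of the outer segment. Neurons with altered activity and cells under changed load alter their immediate early genes, which encode transcription factors and phosphatases that are made within minutes.

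Values are log2 RPM (reads scaled to a common library total) of 1 transcript per gene, not divided by length, so they are compared between libraries and not between genes. POP70 libraries held 8572287 to 9053322 reads, and POP10 libraries 8931619 to 10339777. Transcripts without a read numbered 3573 to 3886 in POP70 libraries and 3408 to 3588 in POP10 libraries, and the part of depth in the results was not tested. Correlations across genes were 0.973 to 0.9837 between POP70 libraries, 0.9825 to 0.9875 between POP10 libraries and 0.9754 to 0.9879 between libraries of different groups. The medians were 0.9788 within POP70, 0.9849 within POP10 and 0.9838 between the groups.

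No gene passed the threshold between the levels. With limma, 0 of 19289 genes (0%) had an adjusted p under 0.05, and voom on the reads recovered from the table also called 0. Without adjustment, p was under 0.05 in 580 genes (3.01%) with limma and in 544 with voom, and the threshold alone would give 964 on average. Of the 580, 215 (1.11% of genes tested) had the higher mean in POP70 and 365 (1.89%) the lower mean. Without POP70 replicate 1 the number was 1069, and still 0 genes passed. All values of POP70 lay beyond all values of POP10 in 374 genes (1.94%), above them in 147 (0.762%) and below them in 227 (1.18%).

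Intervals of the difference were narrow in well expressed genes, and they cover only how pools differed. Among the 7700 genes with a mean of at least 5 log2 RPM, the median standard error was 0.09 log2 units. The fit shares 1 spread estimate over all groups. The median SD of these genes was 0.136 in POP70, against 0.109 in POP10 and 0.111 in Control. The shared estimate can thus understate the spread of POP70, and intervals from POP70 alone were not computed. In 7647 of them (99.3%) the 95% interval of the difference lay within 2-fold in either direction, and in 7370 (95.7%) within 1.5-fold. No gene of these 7700 had a fitted difference of 2-fold or more. Over all 19289 genes the interval lay within 2-fold in 17636 (91.4%) and within 1.5-fold in 14421 (74.8%).

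The genes of smallest unadjusted p included cone photoreceptor genes on the lower side and the muscle genes sgca, trim63a and desma on the higher side. First in rank was fam46ab, of a family of non-canonical poly(A) polymerases, at chromosome 23, 40275601 to 40286059 of GRCz11. It had 4.74, 4.65, 4.80 and 4.46 log2 RPM in POP70 larvae, against 5.37, 5.18, 5.04 and 5.63 in POP10 larvae. Every POP70 library was below every POP10 library, and the difference was -0.64 ± 0.13 (SE, n = 4 each; limma, unadjusted p = 7.47e-05, adjusted p = 1). It was described because earlier results of these data had singled it out, and its mean over the 8 libraries lay just under the level required of the other leading genes.

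opn1lw2 encodes a red-sensitive cone opsin and lies at chromosome 11, 25481046 to 25483206. Its levels were 10.56, 10.26, 10.60 and 10.70 in POP70 larvae, and 10.80, 10.97, 10.98 and 11.09 in POP10 larvae. The groups did not overlap, and the difference was -0.43 ± 0.09 (limma, unadjusted p = 0.000161, adjusted p = 1). opn1mw1, a green-sensitive opsin at chromosome 6, 41181869 to 41183823, had 10.20, 10.16, 10.39 and 10.28 in POP70 larvae, against 10.55, 10.58, 10.50 and 10.83 in POP10 larvae. The POP70 values were again all lower, by -0.36 ± 0.08 on average (limma, unadjusted p = 0.00032). Red and green opsins stand in tandem copies in zebrafish, and the sources used here do not say how reads shared by similar copies were assigned, so the share of each copy is uncertain.

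The next places on the lower side were read among genes with a symbol and a mean of at least 5 log2 RPM. Of the 100 genes of smallest p among all tested, 73 were lower in POP70. The photoreceptor list described below, with 71 of the 19289 genes tested, held 7 of the 100. grk1b, an opsin kinase at chromosome 5, 54161362 to 54197084, had 6.87, 6.84, 7.01 and 6.73 in POP70 larvae, and 7.22, 7.16, 7.08 and 7.38 in POP10 larvae (difference -0.35 ± 0.08). rgs9a encodes the regulator that speeds the shut-off of transducin, and it had 6.70, 6.75, 6.90 and 6.68 in POP70 larvae, against 7.02, 6.99, 6.98 and 7.19 in POP10 larvae (-0.28 ± 0.07). In both the groups were apart. gjd2b, a gap junction protein of neurons at chromosome 20, 9958506 to 9963713, had 4.88, 4.88, 5.01 and 4.67 in POP70 larvae and 5.35, 5.40, 5.03 and 5.40 in POP10 larvae (-0.44 ± 0.10). The third POP10 library, at 5.03, came close to the highest POP70 library. syt5a, of the synaptotagmins that sense calcium in vesicle release, had 6.05, 6.12, 6.22 and 5.94 in POP70 larvae and 6.40, 6.39, 6.28 and 6.62 in POP10 larvae (-0.34 ± 0.09), with no overlap.

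On the higher side sgca came first among genes with a symbol and a mean of at least 5 log2 RPM. The skeletal muscle list, with 63 of the 19289 genes tested, had 1 member among the 100 genes of smallest p. sgca and trim63a are not on that list. sgca encodes alpha-sarcoglycan of the complex that anchors the muscle membrane, at chromosome 12, 3078223 to 3093024. Its 4 libraries spanned 5.47 to 5.60 log2 RPM in POP70 larvae, against 5.13 to 5.31 in POP10 larvae. These groups did not overlap, and the difference was 0.32 ± 0.08 (limma, unadjusted p = 0.000457). trim63a, a ubiquitin ligase of muscle at chromosome 6, 15651977 to 15653494, had 5.61, 6.09, 5.94 and 5.63 in POP70 larvae and 5.28, 5.46, 5.15 and 5.53 in POP10 larvae (0.46 ± 0.12). desma, the intermediate filament desmin at chromosome 9, 7515864 to 7539326, had 8.61, 8.85, 8.57 and 8.61 in POP70 larvae and 8.31, 8.51, 8.19 and 8.25 in POP10 larvae (0.34 ± 0.09). In each of these genes the lowest POP70 value was above the highest POP10 value.

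The other genes of this side were lonrf1l, cap2 and slit3. lonrf1l, of the LON-domain RING finger proteins, lies at chromosome 8, 13769514 to 13788311, and had 6.84, 6.96, 7.09 and 6.76 in POP70 larvae, against 6.59, 6.70, 6.67 and 6.58 in POP10 larvae (0.28 ± 0.07). cap2, an actin-binding protein of striated muscle, had 6.34, 6.50, 6.30 and 6.42 in POP70 larvae and 6.15, 6.35, 5.92 and 5.94 in POP10 larvae (0.30 ± 0.09). The groups overlapped in cap2 through the second POP10 library. slit3, a secreted guidance cue, had 7.14, 7.15, 7.06 and 7.31 in POP70 larvae and 6.91, 6.92, 7.06 and 6.83 in POP10 larvae (0.24 ± 0.08). Its highest POP10 value and lowest POP70 value were equal to the second decimal.

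**Figure D1:**
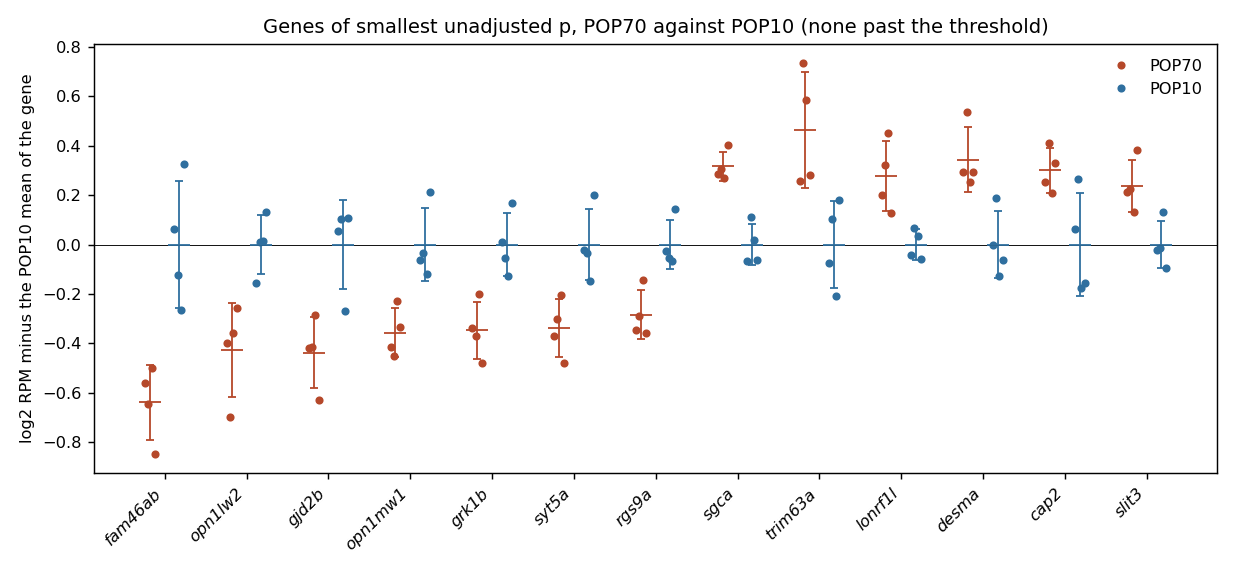
Log2 RPM of 13 genes of small unadjusted p, with the POP10 mean of each gene subtracted, in the 4 POP70 libraries (left of each pair) and the 4 POP10 libraries (right); short lines and bars give mean ± SD. fam46ab, opn1lw2 and the other genes on the left lie lower in POP70, and sgca to slit3 on the right lie higher in POP70, by under 1 log2 unit in every library.

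A list of photoreceptor genes was then read role by role. Of 71 members tested, out of 73 in the table, 62 (87.3%) had the lower mean in POP70, against 53.9% of all genes tested. Shares as high were found in lists of other kinds: ribosomal proteins (92.5%), the aryl hydrocarbon receptor list (89.5%) and skin keratins (87.5%). The median difference of the photoreceptor list was -0.18, against -0.01 for all genes. The groups did not overlap in 9 members, all lower in POP70 (12.7%, against 1.18% of all genes). With limma, 19 members had an unadjusted p under 0.05, all lower, where 1.89% of all genes did so on that side. No member passed the threshold. Many members are expressed in the same cells, and the list was drawn up with earlier results known, so these counts are a description. In RNA from whole larvae, fewer cells of a type and less RNA per cell cannot be told apart. The number of members with the lower mean was 53 without POP70 replicate 1 and 51 without POP10 replicate 4, and the median stayed below 0 in all 21 alternatives (-0.23 to -0.09).

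Opsins were lowest among the roles. All 7 opsins tested had the lower mean in POP70 (median -0.33), and the groups were apart in 3 of them. The third is opn1sw2, a blue-sensitive opsin, with 10.07, 10.03, 10.13 and 10.01 in POP70 larvae, against 10.38, 10.31, 10.29 and 10.57 in POP10 larvae (-0.33 ± 0.09; limma, unadjusted p = 0.0014). The ultraviolet opsin opn1sw1 had 12.08, 12.29, 12.33 and 12.09 in POP70 larvae and 12.43, 12.33, 12.20 and 12.71 in POP10 larvae, so its groups overlapped (-0.22 ± 0.12). The rod opsin rho had 11.85, 12.67, 12.77 and 12.41 in POP70 larvae and 12.49, 12.26, 12.72 and 13.12 in POP10 larvae (-0.22 ± 0.19). In rho the spread within a group was larger than the difference.

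Steps after the opsins lay lower by less. All 7 transducin subunits had the lower mean (median -0.18), among them the cone alpha subunit gnat2, with 10.15, 10.32, 10.48 and 10.15 in POP70 larvae against 10.48, 10.44, 10.40 and 10.90 in POP10 larvae (-0.28 ± 0.10). The phosphodiesterase subunits were lower in 5 of 6 (median -0.21), with the cone catalytic subunit pde6c at 9.37 ± 0.18 in POP70 larvae and 9.63 ± 0.19 in POP10 larvae (SD, n = 4 each). Channel and exchanger genes were lower in 7 of 8 (median -0.16). Their cone channel subunit cngb3.2 had 5.59, 5.46, 5.46 and 5.34 in POP70 larvae, against 5.89, 5.75, 5.88 and 5.82 in POP10 larvae, with no overlap (-0.37 ± 0.10). The counter-example was cnga3b, another cone channel subunit, at 3.76 ± 0.28 in POP70 larvae and 3.53 ± 0.14 in POP10 larvae (0.23 ± 0.24).

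Genes that end or restore the light response were mostly lower too. Kinases, arrestins and recoverins were lower in 10 of 11 (median -0.19). Recoverin rcvrna, a calcium sensor that restrains opsin kinases, had 6.67, 6.57, 6.81 and 6.81 in POP70 larvae and 6.84, 6.91, 6.82 and 7.21 in POP10 larvae (-0.23 ± 0.09), groups just apart. The cone arrestin arr3b was level, at 8.69 ± 0.05 in POP70 larvae and 8.67 ± 0.10 in POP10 larvae. Guanylate cyclases and their activators, which remake cyclic GMP, were lower in 7 of 8 (median -0.20), and none had an unadjusted p under 0.05. Structural genes of the outer segment discs and matrix were lower in 8 of 8 (median -0.22), with the disc rim protein rom1a at 5.99, 6.24, 6.34 and 6.03 in POP70 larvae against 6.52, 6.42, 6.36 and 6.60 in POP10 larvae (-0.33 ± 0.11).

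Synapse genes and regulators made up the rest. All 4 synapse and trafficking genes had the lower mean (median -0.26), and complexin cplx4a, which clamps vesicle release at ribbon synapses, had 7.29, 7.27, 7.32 and 6.93 in POP70 larvae against 7.53, 7.68, 7.48 and 7.59 in POP10 larvae (-0.37 ± 0.10). The rod fate factor nr2e3 had 4.90, 4.63, 4.89 and 4.94 in POP70 larvae and 4.97, 4.99, 5.16 and 5.09 in POP10 larvae (-0.21 ± 0.09). Both genes had groups that were apart. In contrast, crx, which switches on many photoreceptor genes, had 7.16, 7.66, 7.91 and 8.22 in POP70 larvae and 7.43, 7.62, 8.26 and 8.19 in POP10 larvae, a difference of -0.14 ± 0.18. Visual cycle genes, which act largely in pigment epithelium and glia, were lower in 5 of 9 (median -0.05).

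**Figure D2:**
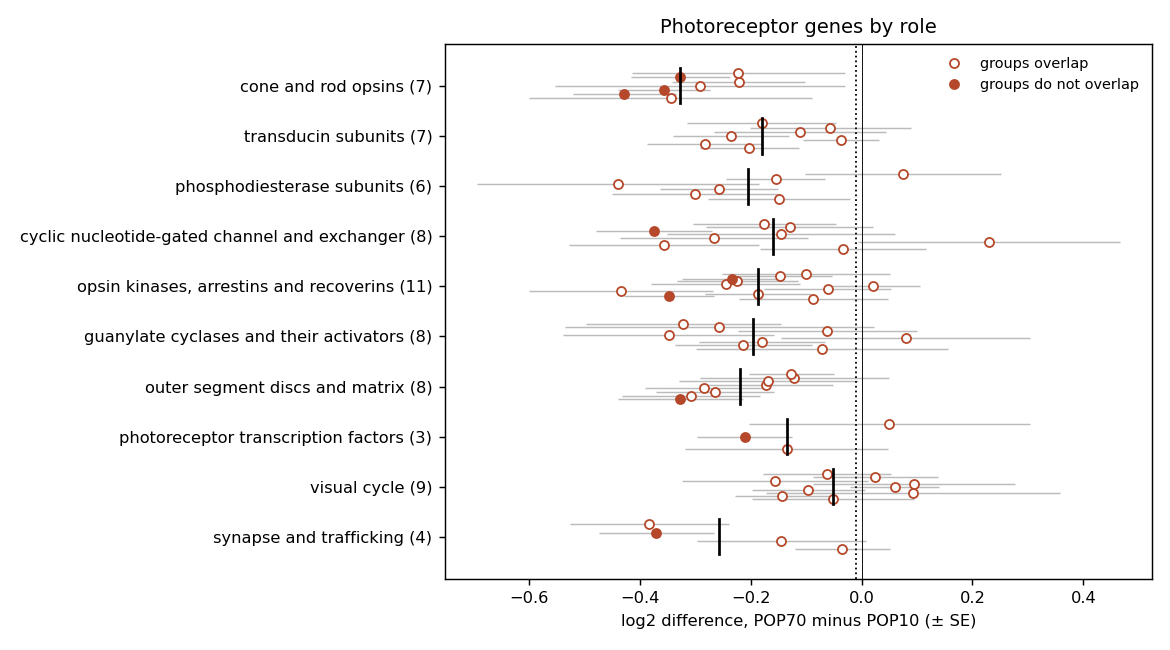
Log2 difference of POP70 minus POP10 (± SE, limma) of 71 photoreceptor genes, 1 point each, grouped by role with the number tested in brackets; filled points mark groups that do not overlap, black bars the median of a role and the dotted line the median of all genes tested. Opsins have a median of -0.33 and visual cycle genes of -0.05.

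Mean levels of the whole photoreceptor list overlapped between the groups. They were 6.44, 6.64, 6.74 and 6.55 in POP70 larvae, and 6.74, 6.64, 6.70 and 6.97 in POP10 larvae. POP70 replicate 1 was lowest and POP10 replicate 4 highest, and these are the libraries whose removal moved the count above. Of other neural lists, 38 of 60 neuron and synapse markers had the higher mean in POP70 (median 0.02), and the median was at or below 0 without POP10 replicate 1 and without POP70 replicate 2 or 3.

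Among transcription factors of the eye and forebrain, 51 of 69 had the lower mean in POP70 (73.9%, against 53.9% of all genes) and 18 the higher, with a median of -0.08. Groups were apart in 3 that were lower (4.35%, against 1.18% of all genes) and 1 that was higher (0.762% of all genes), and none passed the threshold. six3a, a homeobox gene that patterns the eye field, had 6.01, 6.14, 6.07 and 5.89 in POP70 larvae, against 6.25, 6.27, 6.30 and 6.36 in POP10 larvae (-0.26 ± 0.08; limma, unadjusted p = 0.00289). Its duplicate six3b had 5.66, 5.86, 6.00 and 5.74 in POP70 larvae and 6.03, 6.08, 5.97 and 6.09 in POP10 larvae, which overlapped (-0.23 ± 0.08). bhlhe23, a factor of retinal and brain interneurons, had 5.90, 5.83, 5.95 and 5.74 in POP70 larvae and 6.13, 6.14, 6.01 and 6.17 in POP10 larvae (-0.26 ± 0.09), and bhlhe22 of the same family differed by -0.19 ± 0.08. The member that was higher was meis1b, at 8.62 ± 0.04 in POP70 larvae and 8.49 ± 0.07 in POP10 larvae.

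Immediate early genes also had mostly lower means. Of 51 tested, 39 (76.5%, against 53.9% of all genes) had the lower mean in POP70, and the median was -0.14. Mean levels of the list ran from 4.85 to 5.12 in POP70 larvae and from 5.10 to 5.23 in POP10 larvae, and these overlapped. This list too was drawn up with earlier results known, so its counts are a description. An unadjusted p under 0.05 with the lower mean was found in 10 members, against 1.89% of all genes, and groups were apart in 4, all lower (7.84%, against 1.18% of all genes). fosab, a subunit of the AP-1 factor, had 3.83, 3.80, 3.84 and 3.73 in POP70 larvae, against 4.60, 4.33, 4.24 and 4.46 in POP10 larvae (-0.61 ± 0.25). egr4, a zinc finger factor of active neurons, averaged 3.71 ± 0.34 in POP70 larvae and 4.42 ± 0.25 in POP10 larvae (SD, n = 4 each; difference -0.71 ± 0.27). The groups were apart in both, by a narrow margin in egr4. dusp2, a phosphatase of MAP kinases (-0.47 ± 0.15), and sik1, a salt-inducible kinase (-0.40 ± 0.17), were the other 2 members with groups apart, also lower in POP70.

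Other members of that list were lower with more spread. klf2a, a factor that responds to blood flow, had 7.04, 5.89, 6.07 and 5.41 in POP70 larvae and 6.75, 6.83, 7.27 and 6.65 in POP10 larvae. Its difference of -0.77 ± 0.26 was the lowest of any gene with a symbol and a mean of at least 5 log2 RPM, but POP70 replicate 1 lay among the POP10 libraries. npas4a, which marks neuronal activity, was at 3.75 ± 0.56 in POP70 larvae and 4.47 ± 0.41 in POP10 larvae (-0.72 ± 0.42), and egr1 was at 6.14 ± 0.37 in POP70 larvae and 6.46 ± 0.56 in POP10 larvae. Neither had an unadjusted p under 0.05.

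Skeletal muscle genes had mostly higher means, by small amounts. Of 63 tested, 48 (76.2%, against 46.1% of all genes) had the higher mean in POP70, with a median of 0.06. Groups were apart in 3, all higher, where all genes gave 0.762%. Besides desma these were myoz3a, a Z-disc protein with 4.64, 5.24, 4.57 and 4.63 in POP70 larvae and 4.31, 4.56, 4.19 and 4.27 in POP10 larvae (0.43 ± 0.19), and the myosin heavy chain myhz1.1 (0.15 ± 0.11). myhz1.1 belongs to a cluster of near-identical copies, so its level is uncertain. The mean level of the list was 8.98, 8.91, 8.87 and 8.91 in POP70 larvae and 8.87, 8.96, 8.80 and 8.72 in POP10 larvae, and these overlapped.

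Calcium release channels and pumps split 35 higher to 24 lower over 59 genes, with a median of 0.02 that turned to -0.02 with array weights and to -0.01 without POP70 replicate 1. Groups were apart in 1 member in each direction, where all genes gave 0.762% on the higher side and 1.18% on the lower. With limma, an unadjusted p under 0.05 was found in 3 members with the higher mean (1.11% of all genes) and 1 with the lower (1.89%). ryr1b, the calcium release channel of fast muscle, had 7.47, 7.68, 7.59 and 7.67 in POP70 larvae and 7.35, 7.58, 7.32 and 7.27 in POP10 larvae (0.22 ± 0.09). Its groups overlapped. jph1a, which ties the release channels to the surface membrane, differed by 0.31 ± 0.12. The pump atp2a1 was at 12.98 ± 0.21 in POP70 larvae and 12.79 ± 0.07 in POP10 larvae. Another pump, atp2b1b, was lower in POP70, by -0.18. Voltage-gated channel subunits had the lower mean in 25 of 45 (median -0.03, with a sign that turned in 4 of 21 alternatives). Groups were apart in 1, higher in POP70, where all genes gave 0.762%: cacna1sa, the voltage sensor of muscle (0.21 ± 0.12). The only member with an unadjusted p under 0.05 (limma) was lower, cacna2d2a at -0.60, where 1.89% of all genes were lower at that level. The 43 genes of calmodulin, its kinases and calcineurin had 29 lower means and none with an unadjusted p under 0.05.

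**Figure D3:**
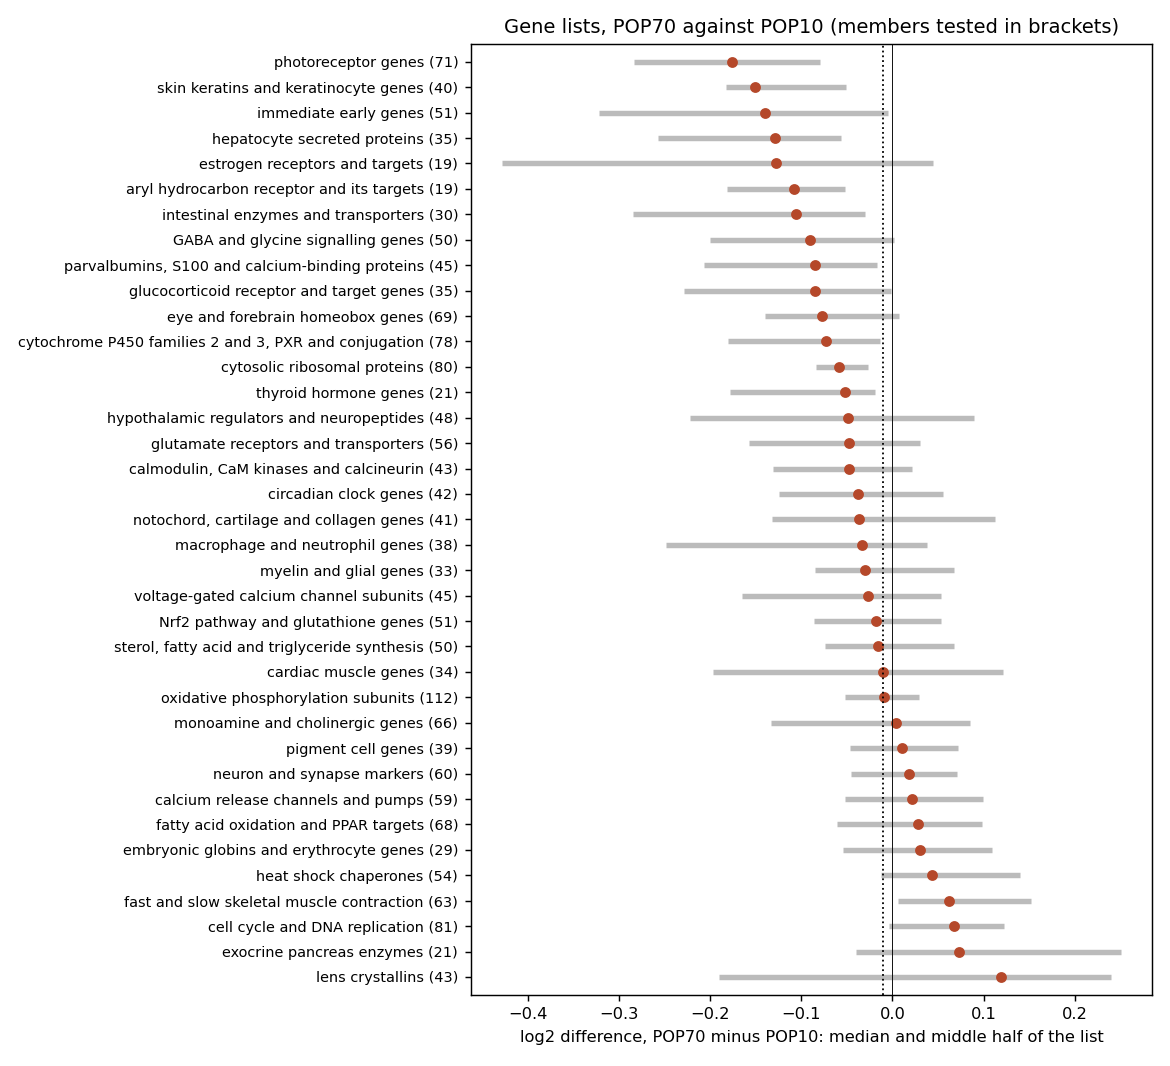
Median (point) and middle part between the quartiles (bar) of the log2 difference, POP70 minus POP10, for 37 gene lists; the dotted line is the median of all genes tested. Photoreceptor genes lie lowest at -0.18 and lens crystallins highest at 0.12, and every median is within 0.2 log2 units of 0.

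The mean level of the chaperone list ranged over 0.21 log2 units in POP70 and 0.25 in POP10, and the group means differed by 0.08. A range within each group wider than the difference of means was also found for the photoreceptor, skeletal muscle and eye and forebrain lists. hsp90aa1.1, the Hsp90 of developing muscle, had 7.94, 9.61, 9.73 and 8.26 in POP70 larvae and 8.68, 8.67, 7.70 and 8.71 in POP10 larvae (0.44 ± 0.34). unc45b, its partner in myosin folding, had 5.76, 6.94, 6.99 and 6.01 in POP70 larvae and 5.82, 6.05, 5.43 and 6.06 in POP10 larvae (0.58 ± 0.23). bag3, a co-chaperone of muscle Z-discs, had 4.41, 5.05, 5.09 and 4.24 in POP70 larvae and 4.61, 4.29, 4.09 and 4.23 in POP10 larvae (0.39 ± 0.18). In each of them POP70 replicates 2 and 3 were high and replicates 1 and 4 lay near the POP10 libraries. Over 54 chaperone genes 37 had the higher mean in POP70, with a median of 0.04. With limma, 2 members with the higher mean (1.11% of all genes) and 1 with the lower (1.89%) had an unadjusted p under 0.05. hsp90aa1.2 was lower in POP70, by -0.20.

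The same kind of spread marked most of the largest differences. The 6 largest on the higher side also included tnks1bp1 (0.52 ± 0.24), rnf150b (0.43 ± 0.17) and the cartilage collagen col9a1b (0.41 ± 0.42), and of these only tnks1bp1 had groups apart. On the lower side came rhcga, an ammonia transporter of skin and gill, with 6.43, 6.29, 5.92 and 5.65 in POP70 larvae and 7.77, 6.36, 6.68 and 6.38 in POP10 larvae (-0.72 ± 0.29). pvalb8, a calcium-binding parvalbumin, had 6.11, 8.04, 8.28 and 6.10 in POP70 larvae and 7.82, 8.17, 6.74 and 8.37 in POP10 larvae (-0.64 ± 0.41). POP70 replicates 1 and 4 were thus low in pvalb8, while replicates 2 and 3 lay within the POP10 range. The others were setd3 (-0.63 ± 0.23), the lens gene cryba4 (-0.62 ± 0.40) and diabloa (-0.54 ± 0.30), all with overlapping groups.

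In most genes the libraries of POP70 were more spread than those of POP10. Mean levels of some lists, such as lens crystallins and skeletal muscle genes, were more spread in POP10. Gene by gene, the standard deviation was larger in POP70 in 12417 genes (64.4%). Its median over genes was 0.197 in POP70, against 0.162 in POP10 and 0.158 in Control. The first principal component of the 8 libraries held 31.1% of the variance. On it POP70 replicates 1 to 4 lay at 36.2, 4.2, -30.5 and -26.7, and POP10 replicates at 20.4, 10.2, 8.7 and -22.4, so it separated libraries within groups and not the groups.

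Digestive organ genes showed the spread most plainly. Exocrine pancreas enzymes had mean levels of 4.45, 4.08, 2.61 and 2.68 in POP70 larvae, and 3.78, 3.71, 3.26 and 2.81 in POP10 larvae. Intestinal genes had 4.61, 5.18, 3.98 and 3.65 in POP70 larvae and 4.90, 4.13, 4.58 and 4.28 in POP10 larvae. In both lists POP70 replicates 1 and 2 were above replicates 3 and 4, and for the pancreas they lay beyond the POP10 range on both sides. Hepatocyte secreted proteins had 5.82, 5.49, 4.66 and 5.24 in POP70 larvae and 5.75, 5.52, 5.02 and 5.51 in POP10 larvae. The median difference of the pancreas list, 0.07, became -0.18 without POP10 replicate 4, -0.23 without POP70 replicate 1 and -0.18 without POP70 replicate 2. That of the intestinal list, -0.11, became 0.10 without POP70 replicate 4, and that of the hepatocyte list, -0.13, became 0.05 without POP70 replicate 3. No member of the 3 lists had an unadjusted p under 0.05.

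Lens crystallins followed another order of libraries. Their mean levels were 5.03, 5.67, 5.68 and 5.14 in POP70 larvae and 4.34, 5.93, 5.27 and 5.98 in POP10 larvae, and the median difference of 0.12 became -0.23 without POP10 replicate 1, the lowest library. Skin keratins and keratinocyte genes had 35 of 40 members (87.5%, against 53.9% of all genes) with the lower mean in POP70. Their median was -0.15, with list levels of 7.62, 7.38, 7.18 and 7.12 in POP70 larvae and 7.39, 7.42, 7.57 and 7.36 in POP10 larvae. Replicate 1 of POP70 was the highest of all 8 there, so the groups overlapped.

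**Figure D4:**
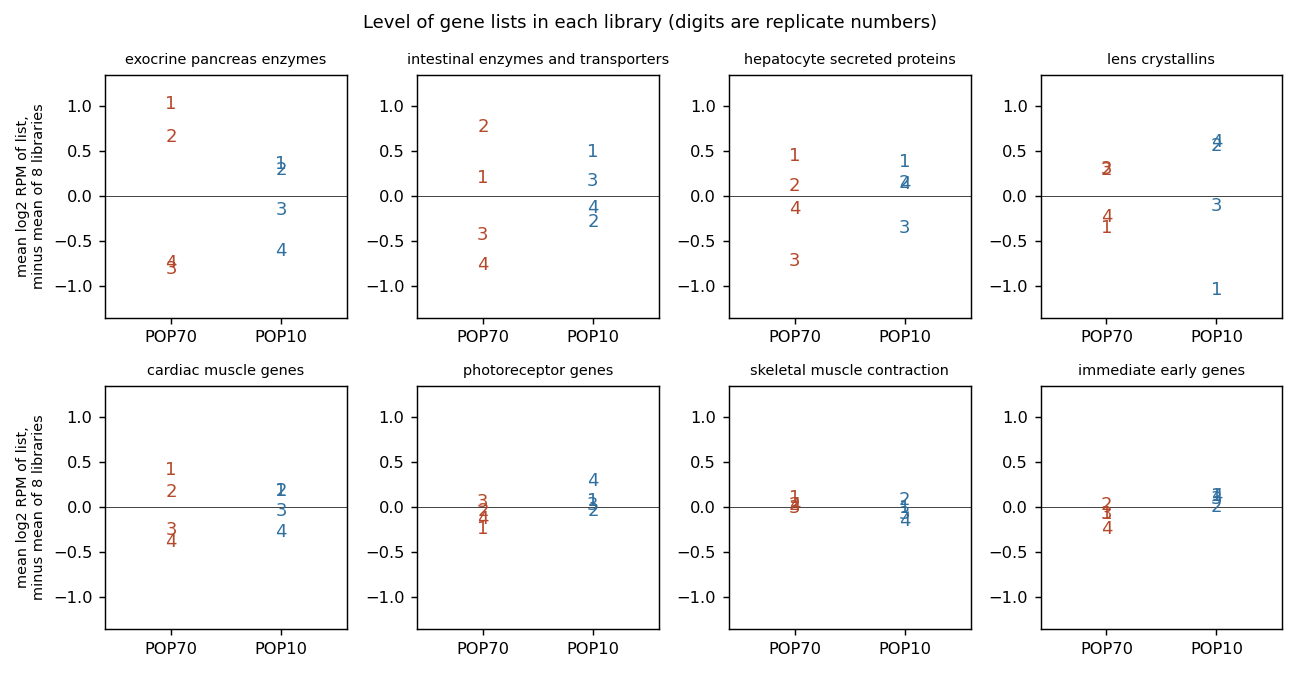
Mean log2 RPM of the tested members of 8 gene lists in each library, minus the mean of the 8 libraries, for POP70 (left) and POP10 (right); digits are replicate numbers. Pancreas and intestine levels of POP70 replicates 1 and 2 lie above those of replicates 3 and 4, while photoreceptor and skeletal muscle levels stay within 0.4 log2 units.

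Targets of the receptors known for such pollutants gave no difference past the threshold. cyp1a, the standard marker of the aryl hydrocarbon receptor, had 3.86, 3.51, 2.76 and 2.90 in POP70 larvae and 4.06, 3.40, 3.44 and 2.92 in POP10 larvae (-0.19 ± 0.29, 95% interval -0.80 to 0.41). These overlapped. Of the 19 genes of this receptor's list 17 (89.5%, against 53.9% of all genes) had the lower mean in POP70. None of them had an unadjusted p under 0.05. cyp1b1, another target, was at 2.63 ± 0.20 in POP70 larvae and 2.68 ± 0.18 in POP10 larvae. cyp3a65, a target of the pregnane X receptor, was at 5.87 ± 0.97 in POP70 larvae and 5.86 ± 0.45 in POP10 larvae.

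Of 78 genes of cytochrome P450 families 2 and 3, the pregnane X receptor and conjugation, 62 had the lower mean in POP70 (median -0.07), and this median turned positive without POP70 replicate 3 and without POP70 replicate 4. Their differences ran from -1.48 to 1.11. Groups were apart in 1 member, where 0.762% of all genes were apart on the higher side: cyp2r1, a vitamin D 25-hydroxylase. It had 2.51, 2.35, 2.36 and 2.04 in POP70 larvae, against 1.49, 1.84, 1.06 and 0.44 in POP10 larvae. The groups were apart at these low levels (1.11 ± 0.33; limma, unadjusted p = 0.00322, adjusted p = 1), and Control was at 2.22 ± 0.62, near POP70. Fatty acid oxidation genes had 40 of 68 higher means in POP70 (median 0.03), with the mitochondrial importer of fatty acids cpt1ab at 7.30 ± 0.17 in POP70 larvae and 7.29 ± 0.22 in POP10 larvae. The sterol enzyme hmgcra was at 5.71 ± 0.22 in POP70 larvae and 5.96 ± 0.15 in POP10 larvae (-0.25 ± 0.12).

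Of 35 glucocorticoid receptor genes and targets 26 had the lower mean in POP70 (median -0.09). Groups were apart in 1 of the 35, lower (2.86%, against 1.18% of all genes). They were apart in 2 of 42 clock genes, both higher, where all genes gave 0.762% on that side. Most clock genes had the lower mean in POP70, 26 against 16 with the higher (median -0.04). With limma, 3 clock genes with the higher mean (1.11% of all genes) and 2 with the lower (1.89%) had an unadjusted p under 0.05. The leucine zipper gene tsc22d3, a glucocorticoid target, had 7.71, 7.61, 7.69 and 7.46 in POP70 larvae and 7.96, 7.75, 7.77 and 7.95 in POP10 larvae (-0.24 ± 0.11). fkbp5, a chaperone of that receptor, was at 8.60 ± 0.20 in POP70 larvae and 8.82 ± 0.21 in POP10 larvae, and the thyroid receptor thrb at 6.58 ± 0.25 in POP70 larvae and 6.75 ± 0.14 in POP10 larvae. nfil3, a clock-linked repressor, had 5.33, 5.37, 5.42 and 5.38 in POP70 larvae, against 5.08, 5.14, 5.18 and 5.24 in POP10 larvae (0.21 ± 0.08). All its POP70 values were higher, and the same held for the clock repressor nr1d4b (0.51 ± 0.20).

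Lists of neurotransmitter genes differed among themselves. GABA and glycine genes had 37 of 50 lower means in POP70 (median -0.09) and 4 with an unadjusted p under 0.05, all lower, against 1.89% of all genes, among them the GABA receptor subunit gabra6a, with 4.96, 4.87, 5.19 and 4.84 in POP70 larvae and 5.26, 5.32, 5.14 and 5.34 in POP10 larvae (-0.30 ± 0.10). Of the glutamate list 34 of 56 had the lower mean (60.7%, against 53.9% of all genes; median -0.05), with groups apart in 2 (3.57%, against 1.18%), the kainate receptor subunit grik1a (-0.26 ± 0.10) and the vesicular transporter slc17a7b (-0.31 ± 0.16). Monoamine and cholinergic genes split 34 higher to 32 lower. Groups were apart in 2 of these 66 (3.03%), the acetylcholine receptor subunits chrna7 (-0.46 ± 0.18) and chrnb3a (-0.19 ± 0.09), with lower values in POP70. Transcripts of the GABA enzyme gad1b were at 8.77 ± 0.33 in POP70 larvae and 8.84 ± 0.19 in POP10 larvae, and calmodulin calm1a at 9.85 in both.

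Housekeeping lists had small median differences, though most members of some lay on the same side. Ribosomal protein genes had the lower mean in POP70 in 74 of 80 (92.5%, against 53.9% of all genes). Their median was only -0.06, and none had an unadjusted p under 0.05. Oxidative phosphorylation subunits had a median of -0.01 over 112 genes. Cell cycle and replication genes had 59 of 81 higher means (72.8%, against 46.1% of all genes). Their median was 0.07, where the skeletal muscle list had 0.06. The cyclin ccne2 was at 5.12 ± 0.26 in POP70 larvae and 4.77 ± 0.24 in POP10 larvae.

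The levels were also placed beside Control. The order of means uses the same POP10 and POP70 libraries as above, so it is a description and no separate evidence. Over all genes, 38.2% had means in the order Control, POP10, POP70, upward or downward. Among the 374 genes whose levels did not overlap between the mixtures the share was 28.3%. lonrf1l and fam46ab followed the order, with lonrf1l at 6.31 ± 0.11 in Control, 6.64 ± 0.06 in POP10 and 6.91 ± 0.14 in POP70, and fam46ab at 5.68 ± 0.21, 5.30 ± 0.26 and 4.66 ± 0.15 in the same groups. six3a, at 6.46 ± 0.08 in Control, 6.29 ± 0.05 in POP10 and 6.03 ± 0.11 in POP70, and bhlhe22, at 7.35 ± 0.09, 7.07 ± 0.05 and 6.88 ± 0.05, also descended along the series.

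The opsins did not follow this order throughout. opn1lw2 was at 10.71 ± 0.08 in Control, 10.96 ± 0.12 in POP10 and 10.53 ± 0.19 in POP70, so the lower level lay highest. Of the 71 photoreceptor genes 39 descended along the series (54.9%, against 19.7% of all genes). A POP10 mean above Control was found in 28 of them, against 10181 of 19289 genes, and a POP70 mean below Control in 58, against 9614 of 19289 genes. desma was level between Control, at 8.33 ± 0.05, and POP10, at 8.32 ± 0.14, with POP70 at 8.66 ± 0.13. Of the 69 eye and forebrain factors 38 descended (55.1%), and all 80 ribosomal genes had a POP10 mean above Control.

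**Figure D5:**
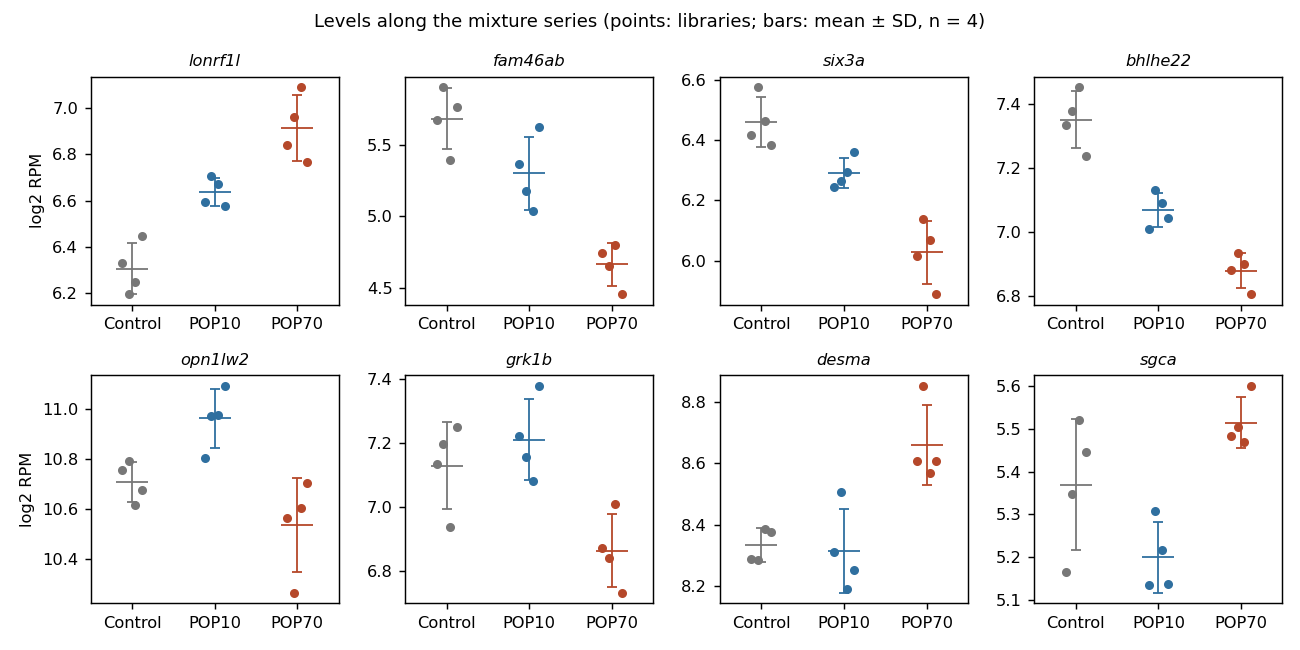
Log2 RPM of 8 genes in Control, POP10 and POP70 larvae; points are libraries and bars mean ± SD (n = 4 per group), with an axis of its own for each gene that does not start at 0. lonrf1l ascends and fam46ab, six3a and bhlhe22 descend along the series, while opn1lw2 and grk1b are highest in POP10 and desma and sgca highest in POP70.

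The step between mixture levels was finally set against the same step of PFOS alone. The 4 groups share no library, and the difference of the differences passed the threshold in 3060 of 19289 genes (15.9%), 509 higher (2.64%) and 2551 lower (13.2%) for the mixture. The count was 1770 without POP70 replicate 4, 1985 without POP70 replicate 3 and 2009 without POP10 replicate 1. It was 1869 without PFOS70 replicate 1, 1899 without PFOS70 replicate 2 and 5066 with array weights. The PFOS10 libraries enter this count, and PFOS70 libraries had 3340 to 3737 transcripts without a read, against 4014 to 4120 in PFOS10, whose part in it was not tested. All 35 hepatocyte genes passed as lower, with a median step of -0.13 in the mixture and 2.48 in PFOS. The mean level of these genes was lowest in PFOS10, at 3.64 log2 RPM, and 6.09 in PFOS70. It was 5.03 in Control, 5.45 in POP10 and 5.30 in POP70, so the PFOS step includes a PFOS10 level below Control. The split moved with scaling, to 1006 higher and 1401 lower after quantile normalization and 2318 higher and 1985 lower after a shift to equal medians, which took the median of all genes to 0.10 where it had been -0.05.

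Among the named genes the step differed between the exposures in several. Many of them were named for a small p or a large difference between POP70 and POP10. That step enters the difference tested here, so these values are no separate evidence on the mixture. rhcga had a step of -0.72 ± 0.29 in the mixture and 2.66 ± 0.29 in PFOS, a difference of -3.38 ± 0.42 (limma adjusted p = 0.000325). klf2a had -0.77 ± 0.26 in the mixture and 1.22 ± 0.26 in PFOS (-1.99 ± 0.37, limma adjusted p = 0.00288). six3b was lower at the higher level of both, by -0.23 ± 0.08 in the mixture and -0.68 ± 0.08 in PFOS (difference 0.45 ± 0.11, limma adjusted p = 0.0111). Photoreceptor genes passed in 3 of 71 (4.23%), with a median step of -0.18 in the mixture and -0.28 in PFOS. For opn1lw2 the steps were -0.43 in the mixture and -0.73 in PFOS (difference 0.31 ± 0.13, limma adjusted p = 0.117), which did not pass. Nor did the difference in lonrf1l (0.14 ± 0.10, limma adjusted p = 0.353) or fam46ab (-0.40 ± 0.18, limma adjusted p = 0.142).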

How the data were processed

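The authors deposited 1 table of log2 values for 48838 transcripts in 20 libraries. Per the submitters' processing notes, the genome build was GRCz11 and the tools were STAR 2.5.4b, Trim Galore 0.4.5, R 3.5.0 and DESeq2. The sources used here do not state the step to log2 values. Judged from the table, each value is the log2 of RPM with 0 reads written as 0.9 reads, and 100% of values from 1 to 1000 reads were whole within 0.05 reads. Columns summed to 3126704 to 3390337 RPM, above the common total, for a reason not tested. Strand-specific counting is not stated, so reads of overlapping genes cannot be told apart. Counting error covers reads, not molecules.

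For each of 22851 genes the transcript of highest mean was used. Genes at 0 log2 RPM or more in at least 4 libraries were tested with limma 3.58.1 (R 4.3.3; group as the only term, 20 libraries, 15 residual degrees of freedom, variance trend, two-sided, Benjamini-Hochberg, threshold 0.05), with no pseudocount added. The 0.9 reads shrink folds of low genes. The voom method of limma was run on recovered reads and called 0 genes. The script was tested on simulated data.

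Named genes had a symbol, averaged at least 5 log2 RPM and were the 6 of smallest p and of largest difference in each direction. Genes of a panel of 40 were added (cyp1c1, ahrra, vtg1, cyp19a1b, dio3b and ryr2a were not tested here), and from 37 lists the members of smallest p or with groups apart. npas4a, egr1, arr3b, cnga3b, opn1sw1, rho, gnat2, pde6c and crx were named after their values were seen, for their roles. Members and lists were chosen with earlier results of these data known.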

Additional observations from a re-analysis of the deposited data

Results flagged for a closer look

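Of 186 groups of 4 libraries tested for a library that stands apart from the other 3, 8 had one, where chance gives about 1 in 20. In POP70 the library apart was at 7.52 log2 RPM for col9a1b, 2.32 for cyp1b1 and 8.85 for desma. In POP10 it was at 12.89 for atp2a1, 5.03 for gjd2b, 0.59 for hcrt, 7.70 for hsp90aa1.1 and 7.70 for slc17a6b.

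The step between levels differed between the mixture and PFOS, by the test of that difference, in 3060 genes. Among named genes with an unadjusted p under 0.05 in the mixture, the mixture step minus the PFOS step was -3.38 for rhcga, -1.99 for klf2a, -1.60 for gnrh3, -1.20 for cox7a1, -0.99 for cyr61 and -0.90 for sik1. It was -0.81 for myoz3a, -0.75 for sult2st3, -0.71 for tsc22d3, -0.62 for obscnb and -0.54 for dusp1. On the other side it was 0.76 for ccne2, 0.48 for bhlhe23, 0.45 for six3b, 0.39 for nfil3, 0.38 for bhlhe22 and 0.33 for slit3. The PFOS10 libraries enter each of these values. So does the mixture step by whose p the genes were picked, so the values are no separate evidence on that step.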

How the results depend on the processing

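The count of 0 genes between POP70 and POP10 held in all alternatives run. Genes with an unadjusted p under 0.05 (580) numbered 153 of 6623 under the stricter filter, which tests fewer genes, and 1123 with array weights, and 413 to 1069 with a library left out. The highest of these was without POP70 replicate 1. Genes whose step differed from that of PFOS (3060) numbered 1068 under the stricter filter and 5066 with array weights, and 1770 to 4143 with a library left out. The cause of these changes was not tested.

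The labels do not say what a replicate number marks, and 4 pairs cannot decide whether it pairs the samples. Deviations of same-numbered POP70 and POP10 libraries correlated at 0.235, 0.011, -0.186 and 0.156, and 2 of 4 POP70 libraries correlated best with their own number. With the replicate number as a block 0 genes passed, the unadjusted p was under 0.05 in 653, and the step differed from PFOS in 3421. Of named genes followed with a p, no difference of 77 turned sign and none passed (smallest adjusted p 0.285 with limma). These 77 were picked by a small p in the same libraries, so a kept sign was likely in advance and is no support. Of 98 more followed as values, 23 turned sign in at least 1 alternative, among them cpt1ab, calm1a, gad1b, cyp1b1, cyp3a65 and cyp1a. The median of 15 lists kept its sign throughout and that of 22 turned in at least 1 alternative.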
